A study of Drosophila melanogaster with 42 samples.

Results

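A set of 82 transcripts, of 16637 measured, had a higher level in dissected Drosophila melanogaster ring glands of 2 genotypes that act on PTTH signalling from opposite sides: glands that express RasV12 and glands in which torso is knocked down. The members were chosen from the measured values themselves. On the log2 scale, the mean of the 3 RasV12 arrays had to exceed the mean of the 3 control arrays by at least 0.8, and the mean of the 3 torso-RNAi arrays had to do the same, each at 8 h and again at 18 h before puparium formation. The highest of the 6 group means also had to reach 7. Of the 548 transcripts that met this requirement in RasV12 glands at both times, 15% were members, and of the 695 that met it in torso-RNAi glands, 11.8% were.

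The ring gland is the endocrine organ of the fly larva, and its prothoracic gland cells make ecdysone, the steroid that sets off moulting and pupariation. Brain neurons release the prothoracicotropic hormone PTTH onto these cells, where the receptor tyrosine kinase Torso passes the signal through Ras and its kinase cascade to ecdysone synthesis. RasV12 is a form of Ras that stays active, whereas RNA interference against torso lowers the receptor, so the 2 manipulations are expected to raise and to lower the same signal.

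Genotypes were driven in the prothoracic gland with phantom-Gal4, a driver that all driver-cross larvae carry. The RasV12 larvae (phantom-Gal4/RasV12) are labelled as accelerated in development, and the torso-RNAi larvae (phantom-Gal4/Torso-RNAi) as delayed. The control larvae (phantom-Gal4/w1118) carry the driver and no second transgene, so no transgene control of another kind stands beside them. Each genotype was measured in the last larval instar at 8 h and 18 h before puparium formation, with 3 biological replicates per group, 18 arrays in all. A further 24 arrays hold ring glands and whole larvae of the w1118 strain at 4, 8, 24 and 36 h of the instar, again 3 per group. All larvae grew on yeast paste without light. For the 9 arrays of the 8 h groups the sample titles give 18 h and the source descriptions 8 h, and the source descriptions were followed. The titles also describe the gut as blue in the 18 h larvae and as partly clear in the 8 h larvae.

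The values are array intensities on a linear scale, and the number of arrays limits their precision. Array medians lay between 348.8 and 393.6 in the driver crosses and between 276.1 and 335.5 in the wild-type arrays. The lowest value of an array was 1.83 to 2.06 in the first and 8.23 to 9.52 in the second, so the 2 sets were taken as normalised separately and no test was made across them. Arrays of the same group resembled each other closely (r from 0.974 to 0.999 over transcripts, a description only), and 0 arrays were identical. The identifiers are FlyBase transcript numbers that the files do not pair with gene names. A reference gene table held 44 of the 16637, and 0 of the 82 members. The levels of torso, of phantom and of markers for the ring gland and other tissues could not be read, so the labels of genotype and tissue were not checked on single genes. No sequence is shown for the same reason.

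The 2 genotypes had median differences of the same order. Relative to control glands, the median log2 difference over the 82 members was 1.61 at 8 h and 1.94 at 18 h in RasV12 glands, and 1.54 at 8 h and 1.67 at 18 h in torso-RNAi glands. Over all 16637 transcripts the same medians lay between -0.06 and 0.06. Single differences ranged from 0.80 to 6.39. These differences chose the members and are a description only. A difference of at least 0.8 against control was seen for 9.29% of all transcripts in RasV12 glands at 8 h and 9.8% at 18 h, and for 9.1% in torso-RNAi glands at 8 h and 10.4% at 18 h. Both genotypes were set against the same 6 control arrays, so a low control value raises all the differences of its time.

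**Figure D1:**
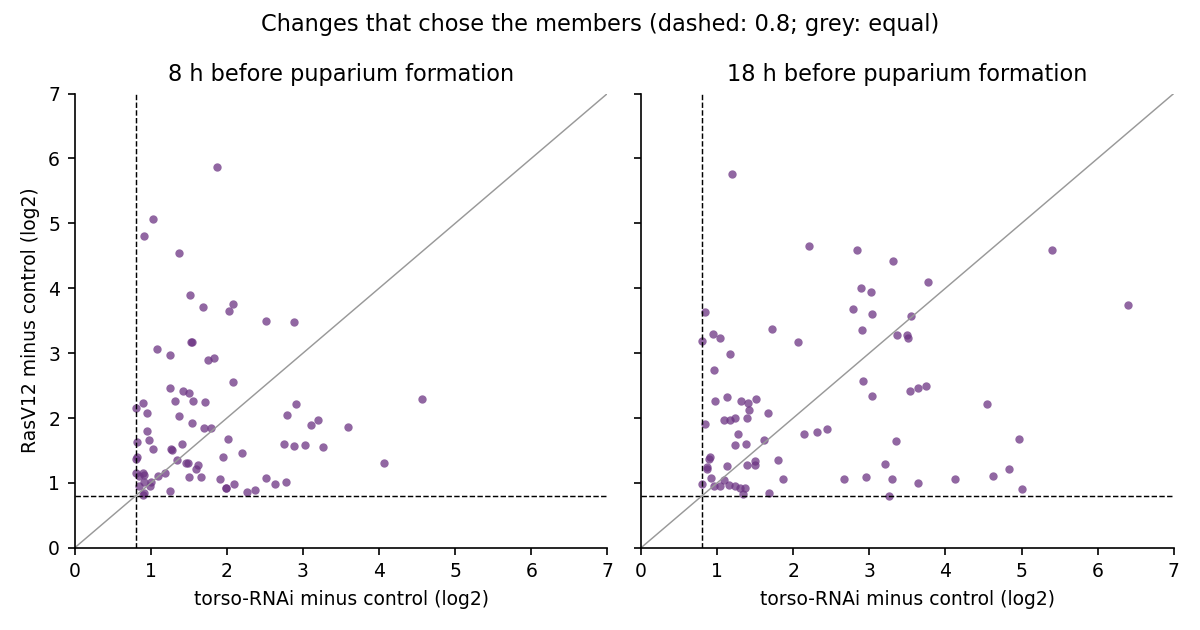
Log2 difference from control in RasV12 glands (vertical axis) against torso-RNAi glands (horizontal axis) for the 82 members, at 8 h (left) and 18 h (right) before puparium formation. Each point is 1 transcript, dashed lines mark 0.8 and the grey line marks equal differences. All points lie above 0.8 on both axes because the rule requires it, and they scatter on both sides of the grey line.

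Many members passed the threshold by little. The smallest of a member's 4 differences had a median of 1.07, reached 1 in 46 members and 2 in 4. It lay between 0.8 and 0.9 in 21 members, while 25 further transcripts fell between 0.7 and 0.8. FBtr0088809 was just inside with 0.803, and FBtr0088020 was just outside with 0.797. FBtr0088809 also had the lowest of the members' highest group means, 7.06, against 6.97 for FBtr0075904, the transcript nearest below the floor of 7. Without that floor 106 transcripts would have been chosen, 24 more than with it.

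The 2 members with the highest smallest difference were FBtr0088141 and FBtr0113196. FBtr0088141 had intensities of 764, 1037 and 409 in RasV12 glands at 8 h, 140.0, 849 and 354 in torso-RNAi glands, and 73.4, 40.4 and 76.2 in control glands. At 18 h it had 340.2, 436 and 306 in RasV12 glands, 278, 514 and 371 in torso-RNAi glands, and 29.8, 64.6 and 25.4 in control glands. All arrays of both genotypes lay above all control arrays of their time, and the torso-RNAi array of 140.0 at 8 h lay nearest to them. Its smallest difference from control was 2.51 on the log2 scale, in torso-RNAi glands at 8 h, and the others lay between 3.29 and 3.50.

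FBtr0113196 was less even. Its intensities at 8 h were 936, 2089 and 552 in RasV12 glands, 41.9, 1421 and 561 in torso-RNAi glands, and 102, 60.0 and 72.0 in control glands. At 18 h they were 400.2, 839.8 and 423 in RasV12 glands, 314, 477 and 297 in torso-RNAi glands, and 26.4, 114 and 26.6 in control glands. The RasV12 arrays stood clear of control at both times, and the torso-RNAi arrays did so at 18 h. At 8 h, 1 torso-RNAi array lay below all 3 control arrays, so these groups overlapped in spite of a difference of 2.08.

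Such overlap was common. All 3 RasV12 arrays exceeded all 3 control arrays for 68 of 82 members at 8 h, against 27% of all transcripts, and for 66 at 18 h, against 29.1%. For torso-RNAi glands the counts were 60 at 8 h, against 19.4% of all transcripts, and 70 at 18 h, against 26.2%. In 40 members no comparison overlapped, against 4.88% of all transcripts, and in the remaining members at least 1 did. The rule fixes these counts in large part, and nothing is read from them beyond how far single arrays carried a member in.

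**Figure D2:**
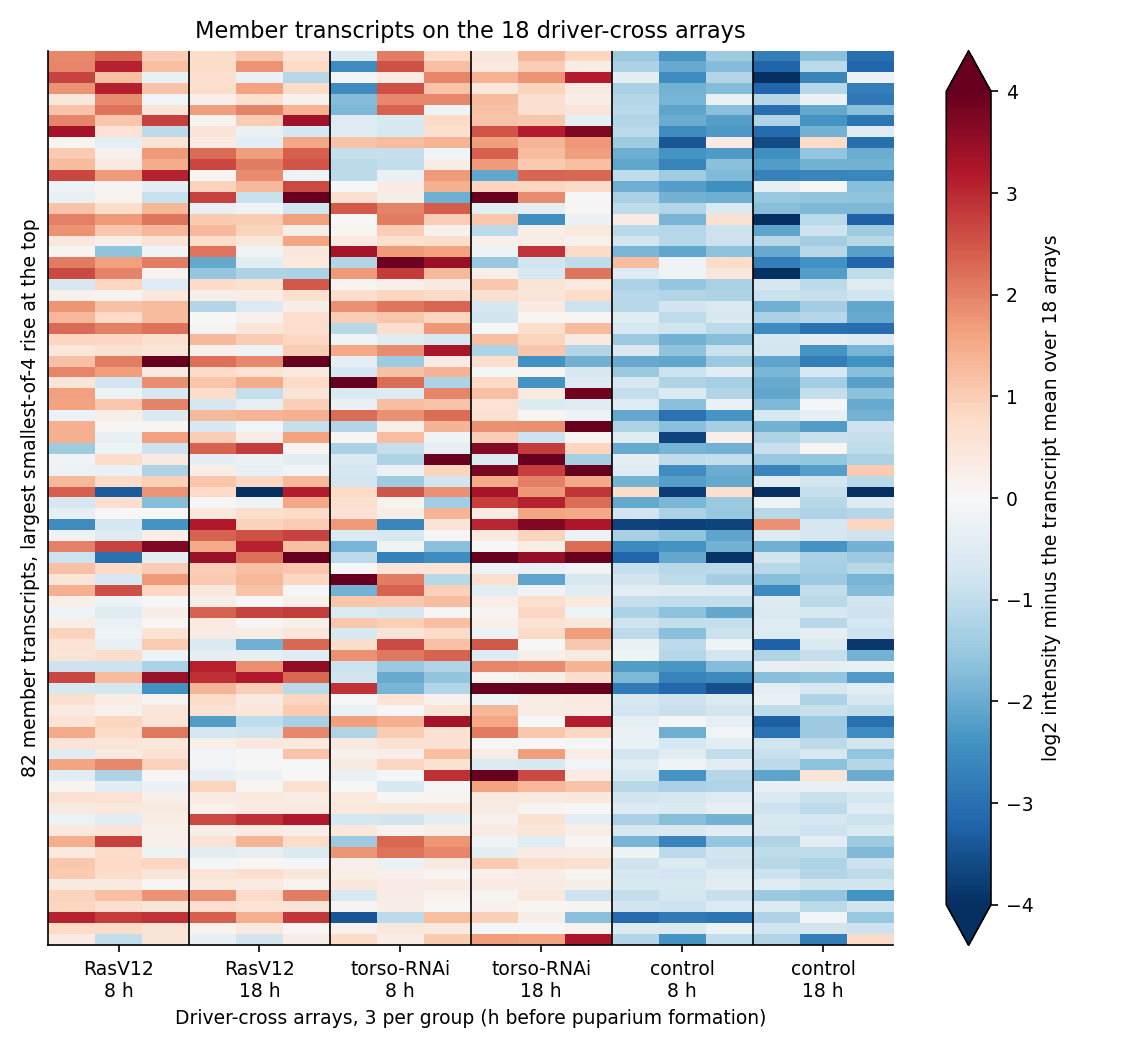
Log2 intensity of the 82 members (rows, the largest smallest difference at the top) on the 18 driver-cross arrays (columns, 3 per group, ordered as RasV12, torso-RNAi and control, each at 8 h and then 18 h), with each member's mean over the 18 arrays subtracted. Red is above and blue below that mean. The control columns are mostly blue and the others mostly red, with single red or blue cells that 1 array of a group does not share with its replicates.

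On the driver-cross arrays, whose group means chose the members, the median SD between replicates was larger over members than over all transcripts. The median SD of the 3 log2 values in torso-RNAi glands at 8 h was 0.712 over members and 0.213 over all transcripts, and 27 members had an SD over 1 there. The share of all transcripts with such an SD was not counted. In control glands at 8 h, the driver-cross group with the smallest spread over members, the medians were 0.311 over members and 0.144 over all transcripts. The rule did not use the wild-type arrays. In wild-type ring glands at 4 h the medians were 0.306 over members and 0.159 over all transcripts. In whole larvae they were closer, 0.167 and 0.146 at 4 h and 0.212 and 0.175 at 36 h. Single arrays stood apart by over 2 on the log2 scale from both other arrays of their group. The first torso-RNAi array at 8 h did so from below for 7 members, against 0.661% of all transcripts, and the third wild-type ring gland array at 8 h for 6, against 0.367%. The second control array at 18 h did so from above for 6 members, 5 of them on the whole-larva list, against 0.673%. Without that control array 79 transcripts met the rule, 73 of them members, and without that torso-RNAi array 84 did, 74 of them members. Without that wild-type array, 4 members in place of 11 were called in the ring gland at 8 h against 4 h. A total of 25 members met the rule whichever single driver-cross array was left out, and 60 met it when the median of the 3 log2 values replaced their mean. The 25 had median differences from control of 2.05 at 8 h and 2.01 at 18 h in RasV12 glands, and 1.70 and 2.31 in torso-RNAi glands, and 16 of them were free of overlap throughout.

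FBtr0112772 shows the other end. Its intensities were 38.8, 24.6 and 900.5 in torso-RNAi glands at 8 h and 39.6, 4978 and 23.0 at 18 h, against 45.0, 28.4 and 29.5, and 20.1, 19.9 and 24.1, in control glands. A single array at each time held most of the torso-RNAi signal. Of the other arrays, the one with 39.6 at 18 h lay above all 3 control arrays, and none of the rest did. In RasV12 glands it had 52.0, 95.5 and 74.4 at 8 h and 43.8, 48.7 and 43.2 at 18 h, all above their controls. The log2 differences from control there were 1.10 at 8 h and 1.09 at 18 h. FBtr0081309 had a comparable pattern in RasV12 glands, with 60.4, 112 and 784 at 8 h and 124, 102 and 1571 at 18 h, against 6.70, 6.43 and 9.68, and 6.24, 3.99 and 5.0, in control glands. Here all 6 RasV12 arrays were above control, and 1 at each time stood about an order of magnitude above the rest. In torso-RNAi glands at 18 h, FBtr0081309 had a lowest, median and highest intensity of 5.06, 7.12 and 42.0. There 1 array held most of the signal, and the lowest array overlapped control.

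Control glands, in which the members were low by choice, could also be set beside the wild-type ring gland, which the rule did not use. Because the 2 sets of arrays were normalised apart, each transcript was ranked within its array, with 100% as the brightest, and no test was made. The median member stood at the 54.7th percentile in RasV12 glands, the 53.6th in torso-RNAi glands and the 40.9th in control glands, against the 50.3rd in wild-type ring glands. In wild-type whole larvae it stood at the 69.4th. Control glands had 59 of 82 members below the array median at each time, RasV12 glands 34 at 8 h and 31 at 18 h, and torso-RNAi glands 35 and 30.

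**Figure D3:**
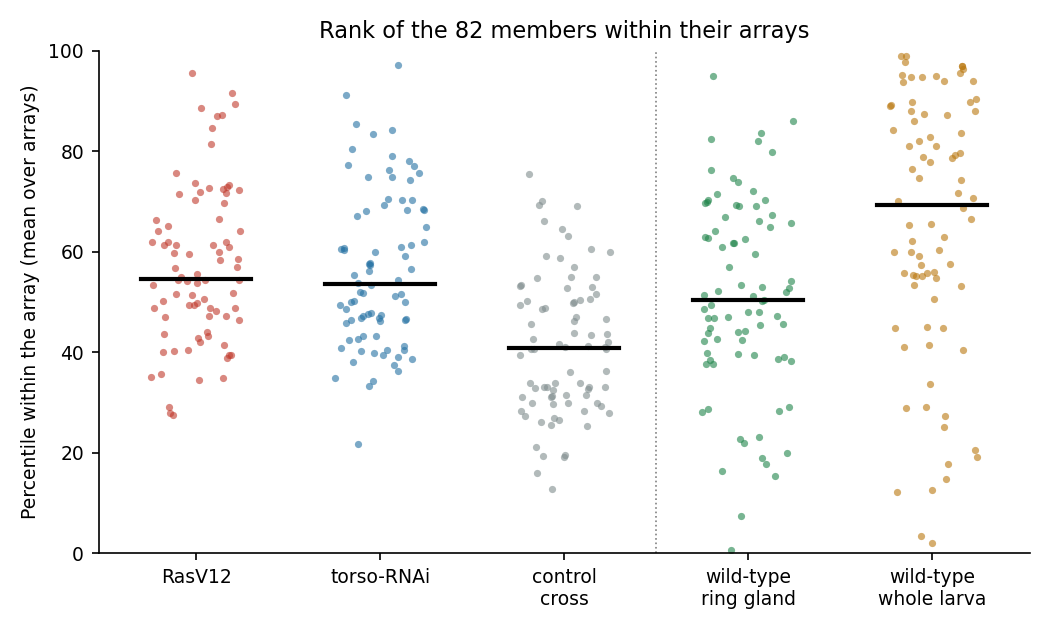
Percentile of each of the 82 members within its array, averaged over the arrays of RasV12, torso-RNAi and control-cross ring glands and of wild-type ring glands and whole larvae. Points are transcripts and bars are medians (54.7, 53.6, 40.9, 50.3 and 69.4). The dotted line separates the 2 separately normalised sets of arrays, and the control-cross bar is the lowest.

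For 35 of 82 members, 42.7%, all 6 control arrays ranked below all 12 wild-type ring gland arrays, against 17.4% of all transcripts. The opposite, control above all wild-type arrays, was seen for 4 members, 4.88%, against 21.9%. Against the 6 wild-type arrays of 24 and 36 h alone, 41 members had all control arrays below, compared with 22.7% of all transcripts. In 29 members the control mean lay below the wild-type range while both genotype means lay inside it, a pattern of 3.66% of all transcripts. In 11 members control lay inside and both genotypes above, against 1.65%, and in 3 members control lay below and both genotypes above, against 0.0421%. Wherever control lay, both genotype means were above the wild-type range in 22 members, 26.8%, against 17.5% of all transcripts. The wild-type glands of 24 and 36 h ranked nearer to the 2 genotypes than to control for 50 members. That was 61.0% of members, below the 66.2% of all transcripts. Low control ranks are what the rule selects, so these counts describe the members. The driver, the cross, the staging and the separate normalisation differ together between the 2 sets of arrays and cannot be told apart.

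The wild-type arrays, which the rule did not use, gave a separate measure of where the members are expressed. The rule favours transcripts with a low level in control ring glands. The median log2 level there was 7.05 at 8 h and 7.02 at 18 h over members, against 8.60 and 8.58 over all transcripts. Members were compared with all transcripts, and not with transcripts equally low in control glands. Most members had a lower level in the ring gland than in the whole larva. Of 82 members, 59 were lower in the ring gland, averaged over the 4 times, and 20 were higher, at an adjusted p under 0.05 by limma over all transcripts. Among all 16637 transcripts, 28.6% were lower and 57.1% higher. The median member was 1.78 lower in the ring gland on the log2 scale, whereas the median of all transcripts was 0.27 higher. After a shift of every array to a common median (array centring, by the median deviation), 61 members were lower and 13 higher. This centring moved the median of all transcripts by -0.30, and the members' median became -2.08, against -0.03 for all transcripts, so their direction did not rest on the scaling.

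**Figure D4:**
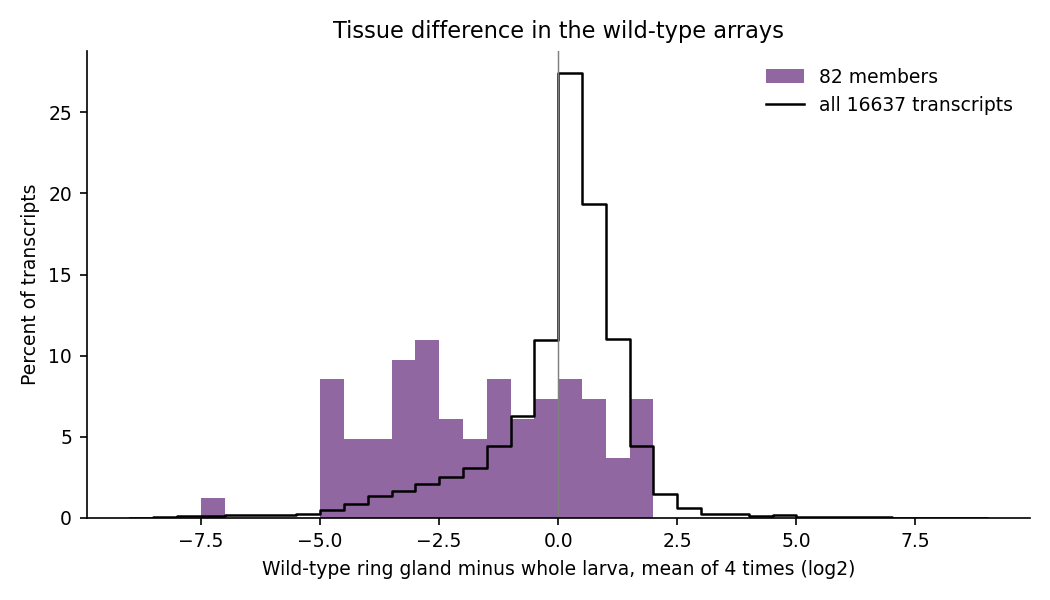
Distribution of the log2 difference, wild-type ring gland minus whole larva and averaged over 4, 8, 24 and 36 h, for the 82 members (bars) and all 16637 transcripts (line), as percent of each. Most of the members' bars lie left of 0, where the ring gland is lower, and the line peaks near 0.

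The same direction held at each time taken alone. The number of members lower in the ring gland was 55 at 4 h, 47 at 8 h, 50 at 24 h and 47 at 36 h, against 20.7%, 21.4%, 23.2% and 24.4% of all transcripts. The number higher was 13, 17, 13 and 16, against 40.7%, 43.3%, 46.1% and 56.3%. At all 4 times together 37 members were lower, against 12.6% of all transcripts, and 9 were higher, against 32.2%. The mean ring gland level was at least 4-fold lower for 38 members, against 9.99% of all transcripts, at least 16-fold lower for 12, against 2.37%, and at least 4-fold higher for 0, against 2.99%. Among the 25 members that met the rule without any 1 array, 23 were lower in the ring gland and 2 were higher.

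The widest gap was that of FBtr0112772, which ranged from 28.7 to 50.2 in the 12 wild-type ring gland arrays with a median of 40.9, and from 1473 to 13208 in the 12 whole-larva arrays with a median of 6111. No ring gland array came near a whole-larva array, and the log2 difference was -7.04 ± 0.11 (SE, adjusted p = 1.9e-20 by limma). FBtr0083405 had a lowest, median and highest ring gland intensity of 49.0, 111 and 353, against 2890, 3348 and 5092 in whole larvae, a difference of -4.90 ± 0.26 (adjusted p = 1.6e-12 by limma). These levels are of bulk tissue, in which fewer cells of a type and less RNA per cell cannot be told apart.

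The 20 members higher in the ring gland differed by less. FBtr0113374 ran from 945 to 1677 in ring glands with a median of 1347, against 288 to 468 with a median of 365 in whole larvae, a difference of 1.84 ± 0.07 (adjusted p = 3.2e-14 by limma). In the driver crosses it had 2019, 1964 and 1529 in RasV12 glands at 8 h, 1732, 1373 and 1465 in torso-RNAi glands, and 802, 815 and 919.9 in control glands. At 18 h it had 1653, 1723 and 1621 in RasV12 glands, 1689, 1723 and 1765 in torso-RNAi glands, and 887, 722 and 820.3 in control glands. The control arrays were below every array of both genotypes. FBtr0075027 ran from 77.5 to 181 in ring glands with a median of 108, against 26.4 to 45.6 with a median of 37.3 in whole larvae, a difference of 1.75 ± 0.10 (adjusted p = 8.2e-12 by limma).

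A list of transcripts with more signal in the whole larva than in the ring gland stood in for markers of other tissues, since it needs no gene names. It holds the 955 transcripts, 5.74% of all, whose mean level was at least 4-fold higher in the whole larva than in the ring gland at all 4 times. The members include 27 of them, 32.9% of the 82, and 0 of the 260 transcripts, 1.56% of all, that were at least 4-fold higher in the ring gland at all 4 times. In control glands, the 928 non-members of the whole-larva list had a median percentile of 27.6 at 8 h and 32.7 at 18 h. The 260 had 68.1 and 70.8. Low control ranks are what the rule selects, so the 27 and the 0 describe the members. Among the 25 members that met the rule without any 1 array, 8 were on the whole-larva list.

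The rest of the whole-larva list did not move alike in the 2 genotypes. The summed intensity of its 928 non-members (divided by 1000) ranged over 3 arrays from 238 to 262 in RasV12 glands at 8 h, from 296 to 379 in torso-RNAi glands and from 186 to 223 in control glands. At 18 h it ranged from 175 to 231 in RasV12 glands, from 420.4 to 483 in torso-RNAi glands and from 210.1 to 279 in control glands. The torso-RNAi arrays were thus above all control arrays at both times, and the RasV12 arrays were above them at 8 h and overlapped them at 18 h. The median log2 difference of the 928 from control was 0.13 at 8 h and -0.32 at 18 h in RasV12 glands, and 0.37 at 8 h and 0.80 at 18 h in torso-RNAi glands. The 260 transcripts enriched in the ring gland had medians of -0.07 and -0.02 in RasV12 glands, and -0.38 and -0.27 in torso-RNAi glands.

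The members on the whole-larva list had a median difference from control of 1.66 at 8 h and 2.49 at 18 h in RasV12 glands, and 1.66 and 3.25 in torso-RNAi glands. The 55 members outside it had 1.56 and 1.76 in RasV12 glands, and 1.46 and 1.40 in torso-RNAi glands. The part that RNA of other tissues in the dissected glands plays in the members' levels was not tested.

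Within the wild-type ring gland, calls among members over the instar went in both directions, as did those among all transcripts. At 36 h against 4 h, 22 members (26.8%) were higher and 16 (19.5%) lower (adjusted p under 0.05 by limma), against 24.5% and 13.4% of all transcripts. The share higher was thus near that of all transcripts. With array centring, which moved the median of all transcripts by -0.16 here, the counts were 15 and 18, so the split depends on the scaling. At 24 h against 4 h, 17 (20.7%) were higher and 10 (12.2%) lower, against 9.73% and 9.41% of all transcripts. At 8 h against 4 h, 7 (8.5%) were higher and 4 (4.9%) lower, against 2.4% and 2.35%. No member was called for 8 h against 4 h when those 2 groups were fitted alone, although 14 were higher and 12 lower at an unadjusted p under 0.05 in the fit of all wild-type groups.

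In wild-type ring glands, FBtr0087638 at 4 h had 77.6, 63.1 and 146, and at 8 h 122, 104 and 111. At 24 h it had 294, 204 and 679, and at 36 h 895, 666 and 593. It was higher at 36 h than at 4 h by 2.98 ± 0.35 on the log2 scale (adjusted p = 2.3e-06 by limma), with no overlap between those times. This member met the rule whichever array was left out, and it had 3157, 2227 and 3064 in RasV12 glands at 8 h, 2510.0, 2764 and 2307 in torso-RNAi glands, and 903, 626 and 829 in control glands. The second rise was that of FBtr0071657, by 2.02 ± 0.41 (adjusted p = 0.00074 by limma), to 262, 257 and 255 at 36 h, against 82.6, 33.4 and 92.3 at 4 h. FBtr0071657 did not rise steadily. At 24 h it ran from 326 to 1120 with a median of 822, above its 36 h values, and exceeded 4 h by 3.40 ± 0.41 (adjusted p = 7.4e-06 by limma).

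FBtr0079282 had the largest fall among these members. In ring glands it had 1401, 1727 and 1126 at 4 h, then 394, 548 and 221 at 8 h. Its later values were 89.3, 78.8 and 67.3 at 24 h, then 30.5, 25.2 and 46.2 at 36 h. No time overlapped the one before it, and the difference between 36 h and 4 h was -5.41 ± 0.27 (adjusted p = 2.7e-11 by limma). FBtr0087454 also had a lower level at 36 h, with 54.1, 42.6 and 66.7, against 654, 524 and 466 at 4 h, a difference of -3.34 ± 0.20 (adjusted p = 4.2e-10 by limma). In the driver crosses FBtr0087454 had 1659, 1160.5 and 1314 in RasV12 glands at 8 h, 406, 254 and 404 in torso-RNAi glands, and 182, 147 and 165 in control glands. At 18 h it had 1467, 1189.5 and 1649 in RasV12 glands, 1951, 2752 and 1919 in torso-RNAi glands, and 479, 409.5 and 324 in control glands, with RasV12 below torso-RNAi on every array.

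In wild-type whole larvae, 21 members were higher and 20 lower at 36 h than at 4 h (adjusted p under 0.05 by limma), against 25.6% and 28.3% of all transcripts. Of the members, 12 were higher in both tissues, against 8.58% of all transcripts, and 11 were lower in both, against 7.78%. In 1 the ring gland was higher and the whole larva lower, against 3.91%, and in 1 the reverse held, against 0.866%. FBtr0077689 had 1681, 2854 and 2665 in whole larvae at 36 h, against 234, 204 and 165 at 4 h, higher by 3.55 ± 0.48 (adjusted p = 6.9e-06 by limma). FBtr0075552 had 1526, 1636 and 1701 at 36 h, against 185, 186 and 218 at 4 h, higher by 3.05 ± 0.19 (adjusted p = 3.9e-10 by limma). FBtr0075384 and FBtr0079938 had the largest falls, of -5.47 ± 0.40 (adjusted p = 4.1e-09) and -3.47 ± 0.21 (adjusted p = 2.1e-10) by limma. The groups did not overlap in any of these 4 members. The change between 4 and 36 h differed between the tissues in 31 members by limma's test of the difference itself (adjusted p under 0.05). It was more positive in the ring gland in 18 (21.95%), against 27.7% of all transcripts, and more negative in 13 (15.85%), against 17.3%. Neither member share exceeded that of all transcripts. With array centring the counts became 13 and 16.

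Although both genotypes exceeded control, they could still differ from each other. RasV12 and torso-RNAi glands were compared directly, a contrast in which the control arrays do not enter, but whose arrays chose the members. At 8 h, 17 members were higher and 10 lower in RasV12 glands (adjusted p under 0.05 by limma), against 29% and 21.9% of all transcripts. At 18 h, 15 were higher and 11 lower, against 28.2% and 21%. The remaining 55 and 56 members passed in neither direction, and 40 were called at neither time, against 34.3% of all transcripts. With a median SE of 0.527 on the log2 scale, a miss does not show equal levels. Called at both times in 1 direction were 8 members higher in RasV12 glands, against 19% of all transcripts, and 0 lower, against 13.6%. The call turned between the times in 3 members, of which 1 was lower at 8 h and higher at 18 h, against 1.21% of all transcripts, and 2 were higher at 8 h and lower at 18 h, against 0.607%.

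FBtr0073073 had 11299, 9430.1 and 10080 in RasV12 glands at 8 h, against 127, 654 and 3122 in torso-RNAi glands, and 158, 190 and 178 in control glands. The RasV12 arrays were tight and the torso-RNAi arrays ran over more than an order of magnitude, from below control to far above it. The difference between the genotypes was 4.01 ± 0.90 (adjusted p = 0.002 by limma). FBtr0088432 had 442, 708 and 1425 in RasV12 glands, 30.5, 96.6 and 34.3 in torso-RNAi glands and 19.0, 21.1 and 29.6 in control glands at 8 h, a difference between the genotypes of 4.04 ± 0.65 (adjusted p = 0.00014 by limma).

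The reverse held for FBtr0085103 at 8 h, with 3312, 4556 and 2666 in RasV12 glands, 18335, 13924 and 18115 in torso-RNAi glands and 941, 488 and 751 in control glands. These 3 groups did not overlap, and RasV12 was lower than torso-RNAi by 2.28 ± 0.36 on the log2 scale (-2.28, adjusted p = 0.00011 by limma). At 18 h the order of the genotypes was turned, with 9503, 9981 and 10398 in RasV12 glands, 5951.5, 4093 and 3388 in torso-RNAi glands and 2392, 3126 and 1053 in control glands. The groups again did not overlap, and RasV12 was higher than torso-RNAi by 1.19 ± 0.36 (adjusted p = 0.013 by limma). FBtr0083405 differed by -2.75 ± 0.77 (adjusted p = 0.0086 by limma), from 31.5, 9.49 and 26.5 in RasV12 glands and 288, 94.0 and 88.7 in torso-RNAi glands, with 8.16, 6.86 and 9.30 in control glands. Its lowest RasV12 array stood just above the highest control array.

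At 18 h the highest difference in favour of RasV12 was that of FBtr0081309, 4.56 ± 1.10 (adjusted p = 0.0033 by limma), and 3.29 without the RasV12 array of 1571. Its torso-RNAi arrays ran from 5.06 to 42.0 with a median of 7.12, against a mean of 5.08 in control glands. FBtr0290043 had 1956, 2395 and 2901 in RasV12 glands, 354, 476 and 244 in torso-RNAi glands and 207, 197 and 175 in control glands, a difference of 2.79 ± 0.25 (adjusted p = 7.6e-07 by limma). Its torso-RNAi arrays lay just above the control arrays.

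Lower in RasV12 glands at 18 h were FBtr0085044 and FBtr0077218. FBtr0085044 had 352, 268 and 64.2 in RasV12 glands, 2326, 4560 and 2830 in torso-RNAi glands and 104, 87.8 and 100.2 in control glands. Its difference between the genotypes was -4.09 ± 0.98 (adjusted p = 0.0032 by limma), and its RasV12 arrays overlapped control. FBtr0077218 had 595, 401 and 457 in RasV12 glands, 6708, 3381 and 8749 in torso-RNAi glands and 78.9, 108 and 1016 in control glands, a difference of -3.61 ± 0.81 (adjusted p = 0.002 by limma). Here 1 control array exceeded all 3 RasV12 arrays.

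Between the 2 times before puparium formation, calls among members went in both directions in each genotype, as did those among all transcripts. In RasV12 glands 9 members (10.98%) were higher and 13 (15.85%) lower at 8 h (adjusted p under 0.05 by limma), against 16.1% and 17.2% of all transcripts. In torso-RNAi glands 13 (15.85%) were higher and 18 (21.95%) lower, against 13% and 13.2%. In control glands 6 (7.3%) were higher and 10 (12.2%) lower, against 7.6% and 6.25%. These arrays also chose the members, and a member had to stay above control at both times.

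FBtr0079282, which fell through the wild-type instar, was also lower at 8 h in both genotypes. In RasV12 glands it had 70.9, 16.3 and 99.3 at 8 h, against 1378, 581 and 3237 at 18 h, a difference of -4.82 ± 0.75 (adjusted p = 0.00026 by limma). In torso-RNAi glands it had 61.8, 19.6 and 22.9 at 8 h, against 3147, 1455 and 3064 at 18 h, a difference of -6.32 ± 0.75 (adjusted p = 5.1e-05 by limma). In control glands it had 14.1, 30.6 and 8.33 at 8 h, against 76.9, 52.1 and 46.9 at 18 h, and that difference of -1.90 ± 0.75 did not pass (adjusted p = 0.113 by limma). The 18 h arrays of each genotype lay above all its 8 h arrays.

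**Figure D5:**
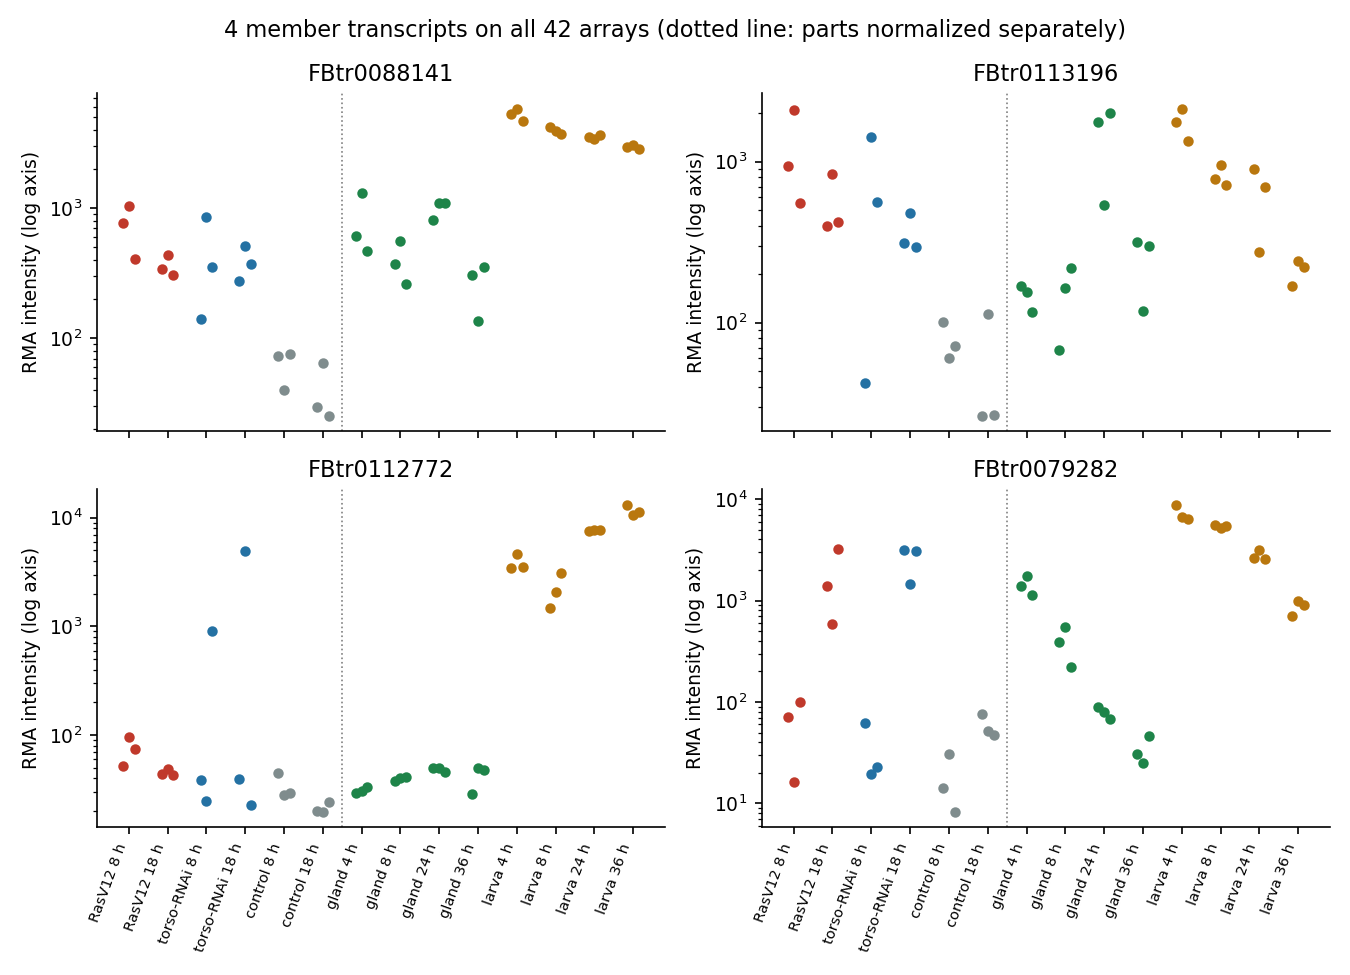
RMA intensity (log axis) of 4 members on all 42 arrays, 3 points per group, with RasV12, torso-RNAi and control glands at 8 h and 18 h left of the dotted line and wild-type ring glands and whole larvae at 4 to 36 h right of it. FBtr0088141 stands above control in every RasV12 and torso-RNAi array, FBtr0113196 has 1 torso-RNAi array below control, FBtr0112772 has 1 bright torso-RNAi array at each time, and FBtr0079282 is higher at 18 h than at 8 h in the driver crosses and highest at 4 h in both wild-type tissues. The sets on either side of the line were normalised separately.

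FBtr0079938 was lower at 8 h in RasV12 glands, by -3.82 ± 0.34 (adjusted p = 4.4e-06 by limma), in torso-RNAi glands, by -2.91 ± 0.34 (adjusted p = 4.3e-05 by limma), and in control glands, by -1.77 ± 0.34 (adjusted p = 0.0044 by limma). FBtr0085044 was lower at 8 h in torso-RNAi glands, with 1011, 37.1 and 60.0, against 2326, 4560 and 2830 at 18 h, a difference of -4.57 ± 0.98 (adjusted p = 0.0037 by limma). FBtr0088160 was lower at 8 h in control glands, with 56.2, 54.9 and 55.6, against 2592, 449 and 1322 at 18 h, a difference of -4.38 ± 0.97 (adjusted p = 0.0094 by limma). The 3 control arrays at 8 h were tight for this member, and those at 18 h were not.

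Among members higher at 8 h, FBtr0075552 had 2294, 1629 and 2213 in torso-RNAi glands at 8 h, against 302, 320.0 and 441 at 18 h, a difference of 2.53 ± 0.22 (adjusted p = 4e-06 by limma). FBtr0076005 had 2073, 2629 and 6762 at 8 h, against 299, 1525 and 313 at 18 h, a difference of 2.67 ± 0.63 (adjusted p = 0.0064 by limma). In RasV12 glands the largest rises were those of FBtr0075665, 2.94 ± 0.89 (adjusted p = 0.02 by limma), and FBtr0085306, 2.16 ± 0.70 (adjusted p = 0.029 by limma). In control glands they were those of FBtr0075384, 3.38 ± 1.01 (adjusted p = 0.039 by limma), and FBtr0085306, 2.32 ± 0.70 (adjusted p = 0.042 by limma). These last 4 differences did not stay under the threshold each time a single array was left out, as 3 to 6 of the removals lost the call.

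Some members are not independent of each other. Their identifier numbers are consecutive in 15 members, which form 7 runs with 8 neighbouring pairs. Over the 24 wild-type arrays, the log2 values of these pairs correlated with a median r of 0.989, from 0.796 to 0.998, and 7 of 8 exceeded 0.9. All 12790 pairs of consecutive identifiers in the table had a median of 0.402, with 11.4% over 0.9. The 24 arrays share tissue and time groups, so these values are a description. Whether such pairs are transcripts of 1 gene that share probes was not tested.

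The members followed their common profile over the 18 driver-cross arrays with a median r of 0.747, from 0.380 to 0.942. The 2 non-members most like that profile were FBtr0086694, with r = 0.960, and FBtr0071293, with r = 0.957, over the same 18 arrays. FBtr0086694 exceeded control by 0.69 at 8 h and 0.90 at 18 h in RasV12 glands and by 0.62 and 0.85 in torso-RNAi glands. FBtr0071293 exceeded control by 0.54 and 0.65 in RasV12 glands and by 0.47 and 0.53 in torso-RNAi glands. FBtr0086694 missed the threshold of 0.8 in both genotypes at 8 h, and FBtr0071293 missed it in both genotypes at both times.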

How the data were processed

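Total RNA was labelled with Cy3 and hybridised to NimbleGen arrays, per the labels. The authors deposited linear intensity values, computed by RMA per the submitters' processing notes. For its version, the probe annotation and each array's slide, nothing is given in the sources used here. Intensities were taken to log2 without a pseudocount or filter. The members and lists were chosen with earlier results of these data known. Each of the 2 separately normalised sets was analysed in R 4.3.3 using limma 3.58.1 on group means, with Benjamini-Hochberg adjustment over 16637 transcripts within each contrast and calls at a 2-sided adjusted p under 0.05. All groups of a set entered the fit. Errors are limma standard errors. The fit was tested on simulated data, with 50 changed transcripts for each size of change. For ring gland at 36 h against 4 h, it called 58% of changes of 0.8 on the log2 scale and 96% of changes of 2. For RasV12 against torso-RNAi at 18 h, these shares were 52% and 80%. False calls among unchanged transcripts numbered 9 and 4. Identifiers without a gene name were limited to 2 for the rule and, per tested comparison, to the 2 largest rises and 2 largest falls among called members whose groups do not overlap. At each single wild-type time the counts alone are given. Alternatives were other scalings, thresholds, floors and fits, a replicate block, and the removal of each array. Names were sought in a RefSeq table (assembly Release 6 plus ISO1 MT).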

Additional observations from a re-analysis of the deposited data

Results flagged for a closer look

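The change between 4 and 36 h differed between wild-type ring gland and whole larva, by limma's test of the difference itself, for 31 of 82 members (adjusted p under 0.05). In 18 (21.95%) the change was more positive in the ring gland, against 27.7% of all transcripts, and in 13 (15.85%) it was more negative, against 17.3%. Members were thus called no more often than all transcripts in either direction. With array centring the counts were 13 and 16.

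The 2 most negative differences of the change were those of FBtr0077689 and FBtr0088809. FBtr0077689 changed less in the ring gland by -3.21 ± 0.68 on the log2 scale (adjusted p = 0.00115 by limma). It had 73.9, 111 and 99.6 in ring glands at 36 h, against 61.8, 53.3 and 122 at 4 h, beside its rise in whole larvae. FBtr0088809 differed by -2.87 ± 0.96 (adjusted p = 0.0217 by limma). The 2 most positive were FBtr0113196, by 3.67 ± 0.73 (adjusted p = 0.000717 by limma), and FBtr0113197, by 3.40 ± 0.69 (adjusted p = 0.000775 by limma). FBtr0113196 had 315, 118 and 298 in ring glands at 36 h, against 169, 154 and 117 at 4 h, and 170, 241 and 221 in whole larvae at 36 h, against 1771, 2130 and 1351 at 4 h. These 2 members have consecutive identifiers.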

How the results depend on the processing

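Moving the threshold of the rule changed the number of members most. At 0.6 in place of 0.8 there were 154, and at 1.0 there were 46. Leaving out 1 driver-cross array gave 66 (without the second control array at 8 h) to 97 (without the third control array at 8 h). Medians of 3, chosen after seeing the data, gave 80, of which 60 were members.

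Of the counts of called members, those over time in the ring gland moved most. For 8 h against 4 h the count of 11 became 5 with a minimum change of 1 on the log2 scale, 0 with those groups fitted alone, and 3 (without the first 4 h array) to 9 with 1 array left out. For 24 h against 4 h the count of 27 became 16 with the minimum change, and 15 (without the third 24 h array) to 23 with 1 array left out. For 36 h against 4 h the count of 38 became 23 with the minimum change. For 8 h against 18 h, the control count of 16 became 9 with the minimum change and 6 to 12 with 1 array left out, lowest without the second control array at 8 h. The RasV12 count of 22 became 14 without the first RasV12 array at 18 h, and at most 22. The cause was not tested, apart from the stricter call that a minimum change makes. The counts for ring gland against whole larva, for whole larvae over time, for the difference of the changes, for RasV12 against torso-RNAi and for torso-RNAi over time, both directions together, stayed within 1.5 times under every alternative run. No difference of a single named transcript changed sign. With array centring the larger share of calls changed direction in 4 comparisons. For ring gland at 36 h against 4 h, 15 were higher and 18 lower, in place of 22 and 16. For the difference of the changes 13 were more positive and 16 more negative in the ring gland, in place of 18 and 13. For ring gland at 8 h against 4 h, 5 were higher and 6 lower, in place of 7 and 4. For RasV12 against torso-RNAi at 18 h, 12 were higher and 13 lower, in place of 15 and 11. The larger share also turned with the minimum change for ring gland and whole larva at 36 h against 4 h, and with single arrays left out for ring gland at 8 h against 4 h, whole larva at 36 h against 4 h, RasV12 against torso-RNAi at 18 h, and RasV12 and torso-RNAi glands at 8 h against 18 h.

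Samples with the same replicate number were compared between groups by their deviations from the group mean. The correlation of these deviations ran from -0.133 to 0.178 over 45 pairs of driver-cross arrays and from -0.485 to 0.335 over 84 pairs of wild-type arrays. In 0 of 15 and 0 of 28 pairs of groups were all numbers over 0.1. That limit counts positive correlation only. Whole larvae at 24 h and 36 h had negative values at all numbers, -0.485, -0.46 and -0.286, and the cause was not tested. With the replicate block, 79 members were called between ring gland and whole larva, 37 for ring gland at 36 h against 4 h, 26 for RasV12 against torso-RNAi at 8 h and 24 at 18 h. The block moved no count of calls by over 1.5 times. The limits of these results are 3 arrays per group, 6 shared control arrays, unnamed transcripts and a time label that rests on 1 of 2 conflicting fields.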
